A study of Homo sapiens with 7 samples.

Results

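The comparison described here sets the peak list of one m6A-ORL library made from total RNA against that of another made from polyA RNA. Its members are all peaks of both lists and the genes named in them, 18683 of the 59659 peaks of the series and 9081 of its 13566 gene identifiers. The method captures RNA that carries N6-methyladenosine (m6A), an adenosine with a methyl group on its base, without an antibody. Fragmented RNA was exposed in turn to NO/O2, to a reagent named TDO and to a biotin-carrying probe named BA, then bound to streptavidin beads and released with DTT, per the labels' protocols. All samples came from HEK-293T, an established human embryonic kidney cell line, grown without a further treatment, and 7 samples are listed, of which the 3 inputs were not analysed here.

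The m6A-ORL library of replicate 1 is labelled total RNA and held 11022 peaks in 7203 genes. The m6A-ORL library of replicate 2 is labelled polyA RNA and held 7661 peaks in 4495 genes. The 2 antibody libraries (MeRIP, replicates 1 and 2) are both labelled polyA RNA and serve below as a readout that was not used to choose the m6A-ORL peaks. The protocol text shared by all samples describes oligo(dT) selection and does not set the total RNA sample apart. With 1 library a side, RNA type and replicate cannot be told apart, no test between the lists was possible, and values are given side by side with exact (Clopper-Pearson) 95% intervals that cover counting error only. Read depth is unknown, so a gene without a peak may have been too thinly covered to give one. A peak list measures neither expression nor the level of modification.

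The cell line could be checked only through peaks on its marker genes. IRS4, an insulin receptor substrate that HEK-293 cells produce strongly, had 5 total RNA and 6 polyA peaks, and the transcription factor genes GATA3 and TBX3 had 1 and 2, and 3 and 1. The neurofilament genes NEFL and NEFM had 4 and 3 polyA peaks and none in total RNA. PAX2, LHX1, EMX2 and LIN28B, 4 of the 9 marker genes listed, had no m6A-ORL peak. Of 17 markers of other cell types 14 had none, and the exceptions were the fibroblast collagen genes COL1A1 (8 total RNA and 1 polyA peaks) and COL3A1 (2 and 0) and the insulin gene INS (1 and 0). These 3 names were assigned by position, and the part of other cells or of other transcripts at these loci was not tested.

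In mRNA, where m6A is the most frequent internal mark, it is written during transcription by a METTL3-containing complex, mostly in long internal exons and around the stop codon. Cell RNA also holds abundant noncoding RNAs with methylated adenosines of their own, U6 snRNA among them, which carries one m6A placed by METTL16. These RNAs mostly lack a poly(A) tail, as do the mRNAs of replication-dependent histones, which end in a stem-loop, and oligo(dT) selection removes most of them. A further mark, m6Am, sits on the first transcribed nucleotide after the cap when that nucleotide is A, so the base at a transcript start matters for any method that reads methylated adenosine.

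The sequence of peaks could not be read because no genome was used here, but the sequence of protein-coding transcript starts under peaks could, from RefSeq promoters (GRCh38.p14). They are shown first because the lists differed in the base at the start. A start counts as covered when a peak on the same strand reached any of its first 50 transcribed bases. Listed first are the 6 starts with the best-scored peak in total RNA and no polyA peak over these 50 bases. They were those of H3C2 (a replication histone), H2BC21 (another), HNRNPA2B1 (an RNA-binding protein), TUBA1B (an alpha-tubulin), H4C5 (a replication histone) and RPS4X (a ribosomal protein). Each is given from 15 bases before the start, with the first transcribed base in capitals.
H3C2 on chr6:26032085-26032114 (minus strand): tctttcctttcctccAcagacgtctctgca
H2BC21 on chr1:149886668-149886697 (minus strand): cccgcccattctcttActtcttttcttggc
HNRNPA2B1 on chr7:26200732-26200761 (minus strand): agcggctctagcggcAgtagcagcagcgcc
TUBA1B on chr12:49131381-49131410 (minus strand): cgccggccccgccctAgtgcgttacttacc
H4C5 on chr6:26204595-26204624 (plus strand): cgtcgcttgtttttcAgatttttgcggcta
RPS4X on chrX:72277234-72277263 (minus strand): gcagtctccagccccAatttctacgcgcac
All 6 begin with A. The 6 best-scored starts in the polyA list alone were those of RPLP1 and RPLP2 (acidic ribosomal proteins), EIF1 (a translation initiation factor), PCBP2 (a poly(C)-binding protein), TLE3 (a transcriptional corepressor) and the locus LOC128071547.
RPLP1 on chr15:69452803-69452832 (plus strand): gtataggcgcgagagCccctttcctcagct
EIF1 on chr17:41688870-41688899 (plus strand): aggcaccgcccctctGccccagtcactgag
RPLP2 on chr11:809952-809981 (plus strand): ttgcgtcggcgccttCcttttcctccctgt
PCBP2 on chr12:53452087-53452116 (plus strand): ccgccccgtccccctCccagaccagcagag
TLE3 on chr15:70096738-70096767 (minus strand): attgcaactcggtttAtttaagcatctatc
LOC128071547 on chr12:120534682-120534711 (plus strand): gggaaaaatgtcgccAtgaaggccgagaac
Of these 6, TLE3 and LOC128071547 begin with A. The polyA peak of H2BC21 (149886296 to 149886533) overlapped its total RNA peak (149886504 to 149886652) but did not reach the first 50 bases. TUBA1B had 2 polyA peaks and RPS4X 3, outside the first 50 bases of the printed start. EIF1, RPLP2, PCBP2 and TLE3 likewise had 1 total RNA peak each outside them. The identifiers of peaks at H4C5 and HNRNPA2B1 could not be named by the rule used for genes, so these 2 are not counted as genes below.

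Over all starts the difference was smaller than in these best-scored ones. The total RNA list covered 1100 protein-coding starts, of which 56.3% had A as the first base (95% interval 53.3 to 59.2). The polyA list covered 559, of which 44.4% had A (40.2 to 48.6), and 159 starts were covered by both lists. Among starts covered in total RNA alone the share of A was 56.5% (n = 941), and in polyA RNA alone it was 40.2% (n = 400), with G in 43.0% of the latter and 28.7% of the former. All 22198 protein-coding starts of the table had A in 50.1%, and uncovered starts of genes with an m6A-ORL peak elsewhere had A in 45.3%, so the total RNA list lay above both and the polyA list lay near the second. The 1754 starts covered by either MeRIP list had A in 51.3%. Median promoter GC content was 63.3% for starts covered in total RNA, 68.7% in polyA RNA and 68.0% in either MeRIP list. It was 62.3% for all starts and 65.7% for uncovered starts of genes with an m6A-ORL peak. Whether the base at the start followed GC content was not tested. RefSeq places 1 or a few starts per gene, and the start used in HEK-293T cells may lie a few bases away. The letters GGAC followed by T, A or C, which are forms of the m6A consensus, occurred on the transcribed strand in the first 50 bases of 14.0% of starts covered in total RNA, 10.2% of those covered in polyA RNA and 14.4% of all starts.

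Most genes were in 1 list only. Of the 9081 genes, 2617 (28.8%) had a peak in both lists, 4586 (50.5%) in total RNA only and 1878 (20.7%) in polyA RNA only. Most genes rested on a single peak, 69.0% of those in the total RNA list and 62.9% in the polyA list. Peaks were of similar length, with a median of 142 nt in total RNA (quartiles 91 to 209) and 149 nt in polyA RNA (91 to 210). Of the 2617 genes in both lists, 1204 (46.0%) had peaks that overlapped between the lists, and the median overlap was 91 nt. The other genes had peaks at different positions. Peak numbers per gene were weakly related (Spearman's rho = 0.17 across these genes, which share libraries, given as a description), with more peaks in total RNA for 755 genes, more in polyA RNA for 745 and equal numbers for 1117.

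Peaks that the authors' score ranked highly were found again more often. The score lies between 0 and 0.0034 in the total RNA list and between 0 and 0.0015 in the polyA list and is read as a p-value or q-value, lower being better. Of the 2755 best-scored total RNA peaks 24.9% overlapped a polyA peak, against 7.73% of the lowest-ranked group of like size. From the polyA side the shares were 33.4% of the best-scored 1915 and 11.6% of the lowest-ranked group. At equal list length (the best-scored 7661 peaks of total RNA) the lists had 2143 genes in common, with 3341 in total RNA only and 2352 in polyA RNA only, so genes in total RNA alone were still the larger group.

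Small structured RNAs were almost confined to the total RNA list. They held 687 peaks of total RNA (6.23%, 5.79 to 6.70) and 6 of polyA RNA (0.0783%, 0.0287 to 0.170). These counts depend on the naming. When any overlap with a small RNA gene position on either strand was counted, the shares were 8.40% and 0.509%. Protein-coding genes held 72.8% and 83.0%, long noncoding RNAs 2.19% and 1.71%, and pseudogenes 278 (2.52%) and 74 (0.966%). Genes that could not be named held 16.0% and 14.0%. In the best-scored 10% of each list the contrast was larger, with small structured RNAs in 26.0% of total RNA peaks (23.5 to 28.7) and 0.261% of polyA peaks, and protein-coding genes in 44.5% and 77.3%.

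**Figure D1:**
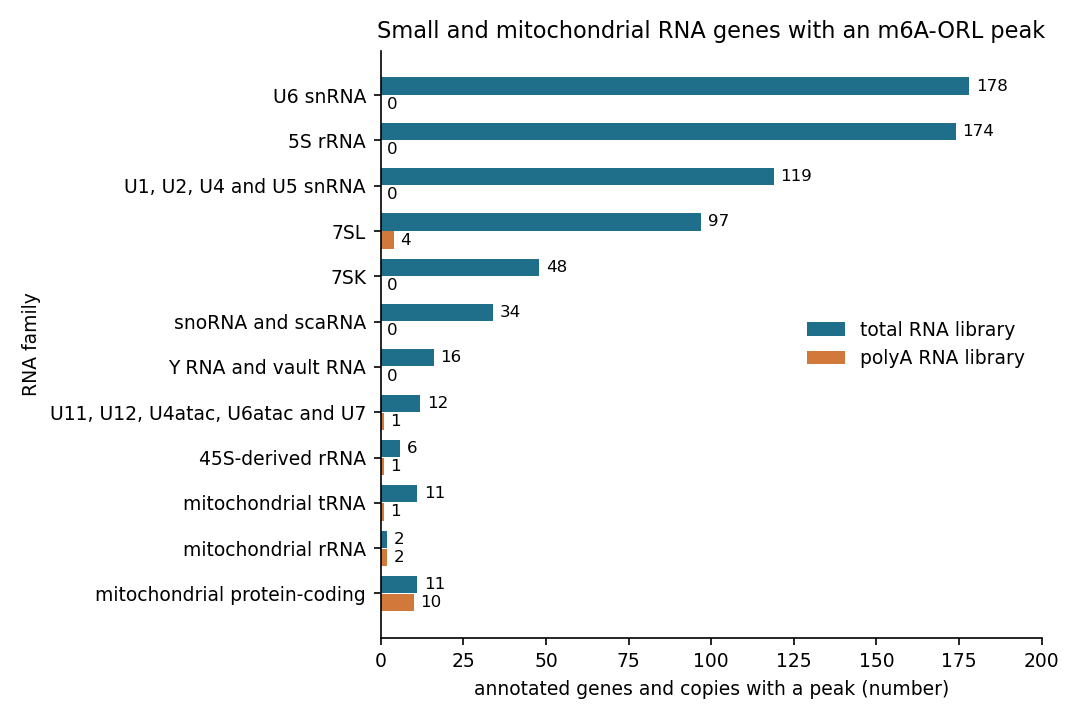
Number of annotated genes and copies with an m6A-ORL peak (horizontal axis) for each small or mitochondrial RNA family, in the total RNA library and the polyA RNA library. U6 has 178 against 0, 5S rRNA 174 against 0 and 7SL 97 against 4, while mitochondrial protein-coding genes have 11 against 10.

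Spliceosomal RNAs led this class. U6, the catalytic core snRNA of the spliceosome, had 178 annotated copies with a peak in total RNA and 0 in polyA RNA, where 0 of 7661 peaks allows a share of up to 0.0392%. Of the 178, 176 carry symbols of pseudogene copies, and they lay on 22 chromosomes. The median U6 peak was 107 nt and covered 100% of the annotated gene, and 169 of the 178 covered at least 90%. These values are partly set by the naming, which took small genes filled to 90% first. Partly covered copies inside other genes were less likely to be named. The position of a modified base inside these copies cannot be read from the peak lists. U1, U2, U4 and U5, which recognise splice sites and build the spliceosome, had 119 copies in total RNA and 0 in polyA RNA. Of the 119, 105 carry symbols of pseudogene copies. U1 had the most copies, followed by U2 with 40, U4 with 19 and U5 with 6. Of the minor spliceosome, which removes a rare class of introns, U6atac had 11 copies and U4atac 1 in total RNA, and RNU6ATAC itself also had a polyA peak. These families have near-identical copies across the genome, and the handling of reads that fit more than one copy is not known from the labels, so the number of copies with a peak is not a number of transcribed genes.

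Other small noncoding RNAs were in the total RNA list only or nearly so, or had no named peak in either list. 5S rRNA, part of the large ribosomal subunit, had 174 copies in total RNA and 0 in polyA RNA. All 174 carry symbols of pseudogene copies. 7SL, the RNA of the signal recognition particle, had 97 and 4, and no copy was in both lists. Of 102 7SL copies with a peak in any of the 4 lists, 99 carry such symbols. 7SK, which holds the elongation factor P-TEFb inactive, had 48 and 0, with a median of 59.6% of the gene covered. All 48 carry symbols of pseudogene copies. Y RNAs, bound by the Ro60 protein, had 13 and 0, and 1 of the 13, RNY1, carries no pseudogene symbol. The vault RNAs VTRNA1-1, VTRNA1-2 and VTRNA1-3 had 1 peak each in total RNA. Small nucleolar RNAs, which guide modification of rRNA, had 34 and 0, made up of 27 of the C/D class, which guides 2'-O-methylation, and 7 of the H/ACA class, which guides pseudouridylation. No peak of either list was named for nuclear tRNA genes, RMRP, RPPH1 or TERC. Unnamed identifiers were not searched for them, and whether the submitters' gene set includes them is not known. An antibody peak in either MeRIP list overlapped 1 of the 687 total RNA peaks and 0 of the 6 polyA peaks of this class, and both MeRIP libraries are labelled polyA RNA.

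RNA of the mitochondrial chromosome did not follow that split as a whole. Total RNA had 32 peaks over 8057 nt of it and polyA RNA 23 peaks over 7134 nt. Neither MeRIP list held any peak on this chromosome, so no overlap was possible. Most mitochondrial mRNAs, though not all, carry short poly(A) tails. Of the 13 protein-coding genes, 11 had a peak in total RNA and 10 in polyA RNA, 8 of them in both. ND3, ND4L and ATP8 were in total RNA only, and COX3 (2 peaks) and ND6 (1 peak), the sole protein gene of the other strand, in polyA RNA only. COX1, a core subunit of cytochrome c oxidase, had 1 total RNA peak and 3 polyA peaks, ND4 had 2 and 3, and ND5 had 3 and 2. Both mitochondrial rRNAs had peaks in both lists, RNR2 3 and 1, and RNR1 1 and 2. Mitochondrial tRNAs were listed for 11 of 22 in total RNA and 1 in polyA RNA, and that one, TRNV, was in both lists.

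Replication histone genes were mostly in the total RNA list. Of 69 listed genes 19 had an m6A-ORL peak, 15 in total RNA and 6 in polyA RNA, with 2 (H2BC5 and H2BC21) in both. Over the 6146 named protein-coding genes with an m6A-ORL peak, 4723 (76.8%) had one in total RNA and 3560 (57.9%) in polyA RNA, while 34.8% were in both lists, 42.1% in total RNA only and 23.2% in polyA RNA only. The histone share in total RNA, 78.9%, was thus near this background and the share in polyA RNA, 31.6% (12.6 to 56.6), was below it. H3C2, which encodes histone H3, had 1 total RNA peak (chromosome 6, 26031921 to 26032099, 179 nt), one of the 70 in that list with a score of 0, and none in polyA RNA. H1-2, H3C7 and H2BC12, encoding linker histone H1, H3 and H2B, had 1 total RNA peak each and none in polyA RNA. H4C8, H4C1, H2AC16 and H2BC18 had 1 polyA peak each and none in total RNA. The histone variant genes that do make polyadenylated mRNA went the other way, with 3 of 6 in total RNA and 5 of 6 in polyA RNA, H1-10 having 1 and 3 peaks and MACROH2A1 0 and 2. Histone genes of a family are close in sequence and can share reads.

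**Figure D2:**
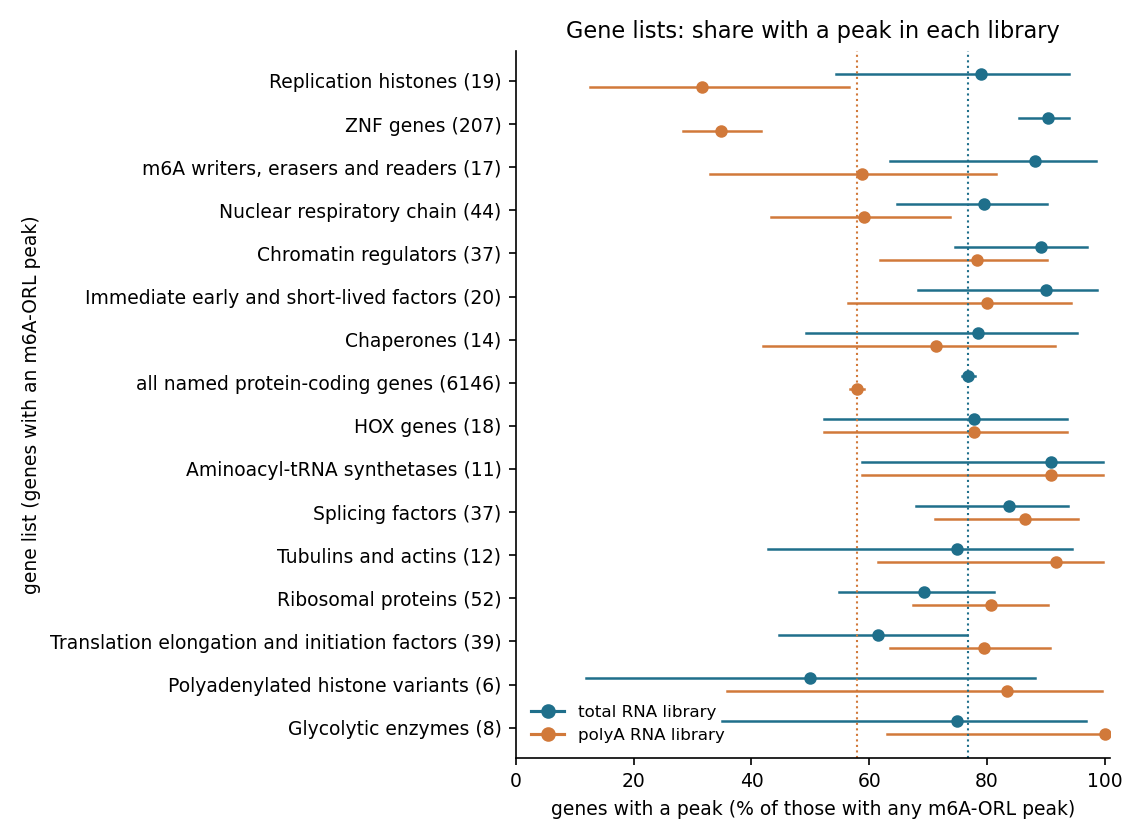
Share of each gene list with a peak (horizontal axis, % of the list's genes that had any m6A-ORL peak, number in parentheses), in the total RNA and polyA RNA libraries, with exact 95% intervals, and dotted lines at the shares of all named protein-coding genes (76.8% and 57.9%). ZNF genes and replication histones lie below the polyA line, while glycolytic enzymes, translation factors and ribosomal proteins lie above it.

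Genes of the translation machinery had more peaks in polyA RNA. The intervals of the differences in shares of genes include 0 with the full lists but not at equal list length. Shares of all named protein-coding genes went the other way, 76.8% in total RNA and 57.9% in polyA RNA. Of 87 genes for cytosolic ribosomal proteins, 52 had an m6A-ORL peak, 36 of them (69.2%) in total RNA and 42 (80.8%) in polyA RNA, with 44 and 61 peaks. The difference in shares was -11.5 percentage points (total RNA minus polyA RNA, 95% interval -27.5 to 5.14). At equal list length it was -18.4 (-34.1 to -1.51). RPS2, of the small subunit, had 0 and 5 peaks and RPS4X and RPS15 1 and 3, whereas RPL13A, of the large subunit, had 4 and 2. Translation initiation and elongation factors had a peak in 24 and 31 of 39 genes, with 32 and 59 peaks. Their difference in shares was -17.9 points (-36.4 to 2.29), and -28.9 (-46.9 to -7.81) at equal list length. EIF4G1, the scaffold of the cap-binding complex, had 4 and 10, EEF2, which moves the ribosome along the mRNA, 1 and 5, EIF3B 1 and 4, and EEF1A2 0 and 3. Aminoacyl-tRNA synthetase genes showed no such difference in gene number, 10 of 11 in each list. Many ribosomal protein genes have processed pseudogenes that can share their reads.

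Glycolytic enzyme genes had more peaks in polyA RNA. This held for all 8 with a named m6A-ORL peak (of 17 listed), with 21 polyA and 8 total RNA peaks. ENO1, the enolase gene, had its start covered in both lists but its identifier could not be named, so it is not among the 8. GPI, which interconverts glucose and fructose phosphates, had 2 and 5. GAPDH, TPI1 and PFKL, 3 enzymes of the main chain, had 1 and 3 each, ALDOA 2 and 3, LDHA 1 and 2, and HK1 and PGAM1 0 and 1. For all named protein-coding genes the median difference was 1 peak more in total RNA, and for this list it was 1.5 more in polyA RNA. Genes of the nuclear-encoded respiratory chain lay near the background, with 35 and 26 of 44 genes, a difference of 20.5 points (1.16 to 37.8) that was 2.44 (-17.6 to 22.2) at equal list length. NDUFA7 and COX6A1, subunits of complexes I and IV, had 3 and 1 peaks each.

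ZNF genes, named for their zinc finger proteins, many of which repress transposable elements, were mostly in the total RNA list. Of 207 with an m6A-ORL peak, 187 (90.3%, 85.5 to 94.0) had one in total RNA and 72 (34.8%, 28.3 to 41.7) in polyA RNA, with 382 and 111 peaks. ZNF142 had 8 and 1 peaks, ZNF318 7 and 0, and ZNF646 and ZNF292 7 and 1 each. ZNF687 was more even, with 6 and 4. At equal list length the difference between these shares was 42.0 percentage points in place of 55.6. Of the 207, 184 also had a peak in both MeRIP lists, against 4515 of all 6146 named protein-coding genes with an m6A-ORL peak.

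Further lists are read against the shares of all named protein-coding genes, 76.8% in total RNA and 57.9% in polyA RNA. Chromatin regulators had a peak in 33 (89.2%) and 29 (78.4%) of 37 genes, and their members went both ways. KMT2C, a histone H3 methyltransferase, had 9 and 1 peaks, TET1, a DNA demethylase, 7 and 0, and NSD1 8 and 2, whereas SMARCA4, the ATPase of the BAF remodelling complex, had 1 and 10. Splicing factors had 31 (83.8%) and 32 (86.5%) of 37, with HNRNPM at 1 and 5 and SON, a nuclear speckle protein, at 8 and 5. Immediate early and short-lived factors had 18 (90.0%) and 16 (80.0%) of 20, with MYC at 4 and 2, JUN at 5 and 3 and IER5 at 0 and 3. HOX genes had 14 and 14 of 18 (77.8% each), with HOXB8 at 0 and 3 and HOXB6 at 3 and 1. The m6A machinery had 15 (88.2%) and 10 (58.8%) of 17, with the writer subunit ZC3H13 at 3 and 7, RBM15B at 3 and 6, RBM15 at 5 and 1 and the reader YTHDF3 at 3 and 0. Chaperones had 11 (78.6%) and 10 (71.4%) of 14, with HSPA8 at 3 and 0 and HSP90AB1 at 0 and 2. Tubulins and actins had 9 and 11 (91.7%) of 12, with TUBB4B at 2 and 5 and ACTB at 3 and 5. The polyA share was above its background in each of these 7 lists, nearest to it in the m6A machinery. The total RNA share was also above its own background in all of them but tubulins and actins, where it was below. For lists of this size the intervals in the plot of shares by list are wide.

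Long noncoding RNAs could be followed for a few well known members. TUG1 had 8 total RNA peaks and 2 polyA peaks, none of which overlapped between the lists. The annotation used here classes TUG1 as protein-coding, so its peaks are counted with protein-coding genes in the class shares above. MALAT1 and NEAT1, retained in the nucleus, had 3 and 3, and 2 and 2. Small nucleolar RNA host genes, whose introns release snoRNAs, had a peak in 9 of 9 genes in total RNA and 4 in polyA RNA, with SNHG1 at 4 and 0. Of 1562 microRNA hairpins, 12 were overlapped by a total RNA peak and 9 by a polyA peak, with MIR1181 in both.

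Single genes could differ by more than 10 peaks. Among genes in both lists, those with the most peaks were SRRM2, a scaffold of nuclear speckles (12 and 13), SPEN, a transcriptional corepressor (16 and 9), KMT2D, a histone methyltransferase (12 and 12), and MKI67, which coats mitotic chromosomes (12 and 10). The largest excess in total RNA was that of FAT1, a giant protocadherin (chromosome 4, 186587794 to 186726696), with 13 and 1. DDX17 (an RNA helicase), VCAN (versican), KMT2C, ALMS1 and PRR14L followed with 9 and 1 each. The largest excess in polyA RNA was that of FASN, the fatty acid synthase (chromosome 17, 82078338 to 82098236), with 2 and 15. FLNA, an actin crosslinker, had 3 and 14, and HCFC1, a chromatin cofactor, and ANKRD11 4 and 13 each. TLE3 had 1 and 9, TNRC18 2 and 9, and DOT1L, a histone H3 methyltransferase, 1 and 8.

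Genes present in 1 list only could carry many peaks too. In total RNA only, the repressor TRPS1 had 9 and ZDBF2 8. QSER1, the kinetochore gene CENPF, the scaffold AHNAK, TET1, MGA, ZNF318 and PRDM2 had 7 each. In polyA RNA only, the cytoskeletal linker PLEC had 9, and PTPRS and INTS1, a subunit of Integrator, 8 each. MYH9 (a nonmuscle myosin), FBRS, PPP6R1, CPSF1 (a subunit of the cleavage and polyadenylation complex) and LRP5 had 7 each, and GPS1 had 6. Antibody peaks varied within both groups. AHNAK had 20 and 15 MeRIP peaks, while INTS1 and CPSF1 had none and ZDBF2 1 and 0.

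**Figure D3:**
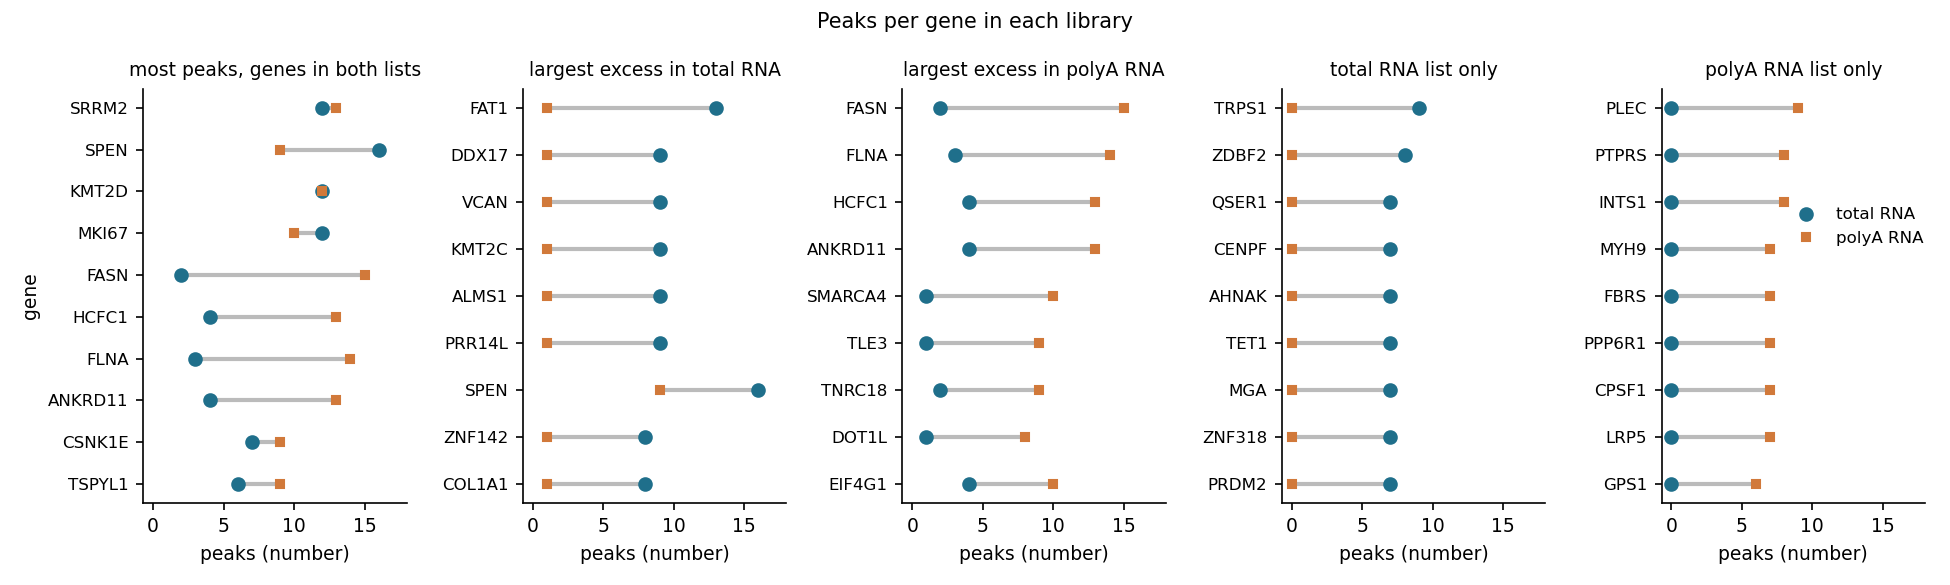
Number of peaks per gene (horizontal axis) in the total RNA library (circles) and the polyA RNA library (squares) for genes of 5 groups defined by those numbers. KMT2D is even at 12 and 12, whereas FAT1 stands at 13 and 1 and FASN at 2 and 15.

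FAT1 and FASN, with the largest excess each way among genes in both lists, differed in their peak positions. In FAT1 12 of the 13 total RNA peaks overlapped an antibody peak and 12 were a single block, a block being a continuous stretch of a peak that a gap, as left by an intron, separates from the next. In FASN 1 of the 15 polyA peaks overlapped an antibody peak and 9 had several blocks, and the antibody lists had 1 FASN peak each. Both total RNA peaks of FASN overlapped polyA peaks. Other genes with a large excess differed from this pair. Every polyA peak of ANKRD11 overlapped an antibody peak and most were a single block, whereas most total RNA peaks of ALMS1 overlapped none. COL1A1 had 7 of 8 total RNA peaks in several blocks and none of its m6A-ORL peaks overlapped an antibody peak.

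Peaks of several blocks were more common in polyA RNA. They made up 9.88% of total RNA peaks (9.33 to 10.5) and 27.8% of polyA peaks (26.8 to 28.8). Peaks of at least 3 blocks made up 1.08% and 5.97%. In protein-coding genes with peaks in both lists the shares were 9.68% and 25.8%, near those over all peaks. Among peaks that overlapped the other list the shares were 12.1% and 17.8%, a difference (total RNA minus polyA RNA) of -5.73 percentage points in place of -17.9. The EIF3A peak of polyA RNA, on a translation initiation factor gene, had 7 blocks, and in total RNA the ZC3H4 and COL3A1 peaks had 5 each, the most in a named gene of that list. Gaps had a median of 991 nt in total RNA and 603 nt in polyA RNA. Of distinct gaps, 122 occurred in both lists, which is 10.1% of those in total RNA and 4.57% of those in polyA RNA.

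**Figure D4:**
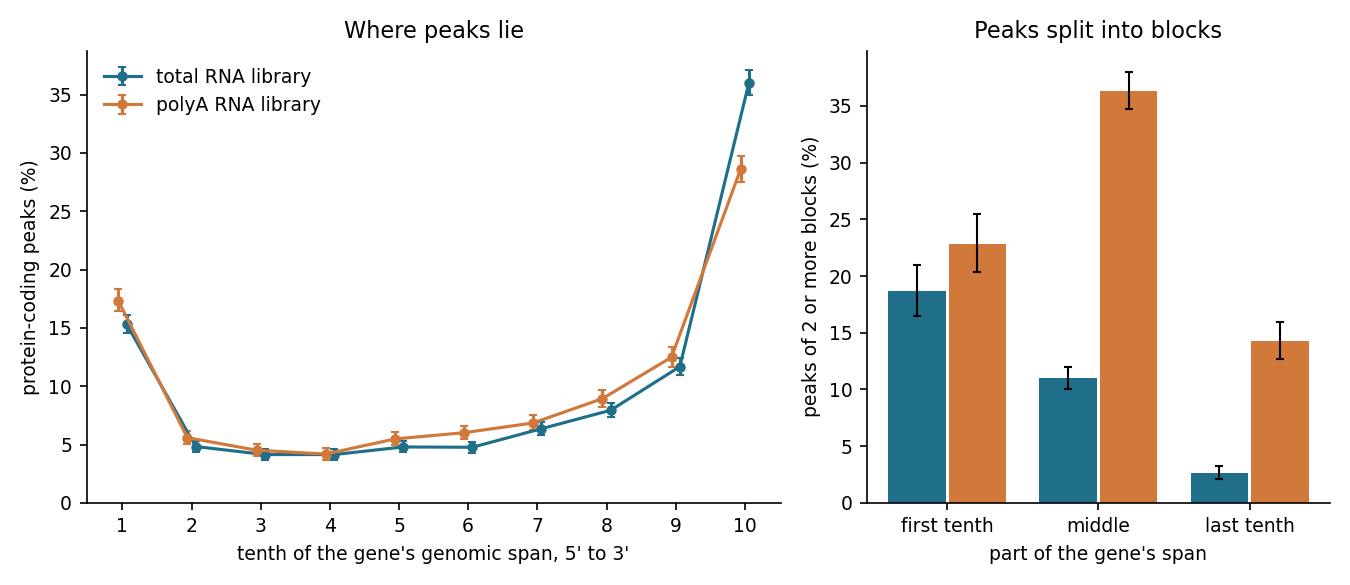
Left, share of protein-coding peaks (vertical axis, %) in 10 equal parts of the gene's genomic span from the 5' to the 3' end. Right, share of those peaks with 2 or more blocks in the first 10% of the span, the middle and the last 10%, with exact 95% intervals. The last 10% of the span holds 36.0% of total RNA peaks and 28.6% of polyA peaks, and in the middle 426 of 3878 total RNA peaks and 1244 of 3424 polyA peaks have several blocks.

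Along protein-coding genes both lists were highest at the ends of the genomic span. The last 10% of the span held 36.0% of total RNA peaks (35.0 to 37.1) and 28.6% of polyA peaks (27.5 to 29.7). The first 10% of the span held 15.3% and 17.3%. By a fixed distance the ends differed little, since 15.1% and 14.9% of peaks lay within 1000 nt of the 3' end. That window held 17.2% and 13.4% in genes with peaks in both lists, and 12.96% and 17.5% in genes of 1 list. In genes with peaks in both lists the last 10% of the span held 37.0% and 28.7%. Blocks and position were linked, since in the middle of the span 426 of 3878 total RNA peaks and 1244 of 3424 polyA peaks (36.3%) had several blocks, in the last 10% of the span 2.61% and 14.3%, and in the first 10% of the span 18.6% and 22.8%. Over all named genes the last 10% of the span held 3.84 percentage points more of the total RNA peaks than of the polyA peaks. With single-block peaks alone, still over all named genes, small RNAs included, it held 33.8% and 32.9%, a difference of 0.898 percentage points. In protein-coding genes, single-block peaks of total RNA numbered 995, 3452 and 2798 in the first 10%, the middle and the last 10%. In polyA RNA these numbers were 848, 2180 and 1554. Within 300 nt of the 5' end lay 8.89% and 8.16% of protein-coding peaks, but 16.7% and 8.68% of peaks in all named genes, where short genes such as the small RNAs count as a whole. Exon positions were not used here, so the share of exon sequence in each stretch is unknown.

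Chromosomes differed in which list they favoured. Over protein-coding genes there were 1.26 total RNA peaks for each polyA peak. This ratio ran from 0.57 on chromosome 19 to 3.05 on chromosome 18. Chromosomes 22, 16 and 17 stood at 0.82, 0.93 and 0.98, and chromosomes 4 and 13 at 2.29 and 2.13. Chromosome 19 held 6.15% of all total RNA peaks (5.71 to 6.62) and 13.7% of all polyA peaks (12.9 to 14.5). In genes with peaks in both lists it held 8.79% and 13.2%, a difference (total RNA minus polyA RNA) of -4.43 percentage points in place of -7.54.

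Chromosome 19 carries many ZNF genes, which leaned the other way. Among its protein-coding peaks, 99 of 514 in total RNA (19.3%) and 36 of 902 in polyA RNA (3.99%) lay in ZNF genes. Its remaining protein-coding genes had 415 and 866 peaks in 271 and 354 genes. ZNF genes on other chromosomes had 283 and 75 peaks, so their excess in total RNA was seen on and off chromosome 19.

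Gene length went with the ratio. The ratio of a chromosome and the median genomic span of its genes with peaks had a Spearman's rho of 0.87 over 23 chromosomes, whose points share both libraries and are a description. Protein-coding genes with peaks in total RNA only had a median span of 39489 nt (quartiles 16403 to 92836), those in polyA RNA only 25577 nt and those in both 26911 nt. Over genes of all classes, small RNAs included, the medians were 21770, 23918.5 and 25938 nt, so the order was not kept. Among protein-coding genes with a span of at least 100000 nt, 49.5% were in total RNA only and 18.5% in polyA RNA only, with 1934 and 1020 peaks. Among genes under 10000 nt these were 32.3% and 26.9%, with 1414 and 1365 peaks. The GC content of promoters had a median of 64.0% in genes of total RNA only and 67.0% in each of the other groups.

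**Figure D5:**
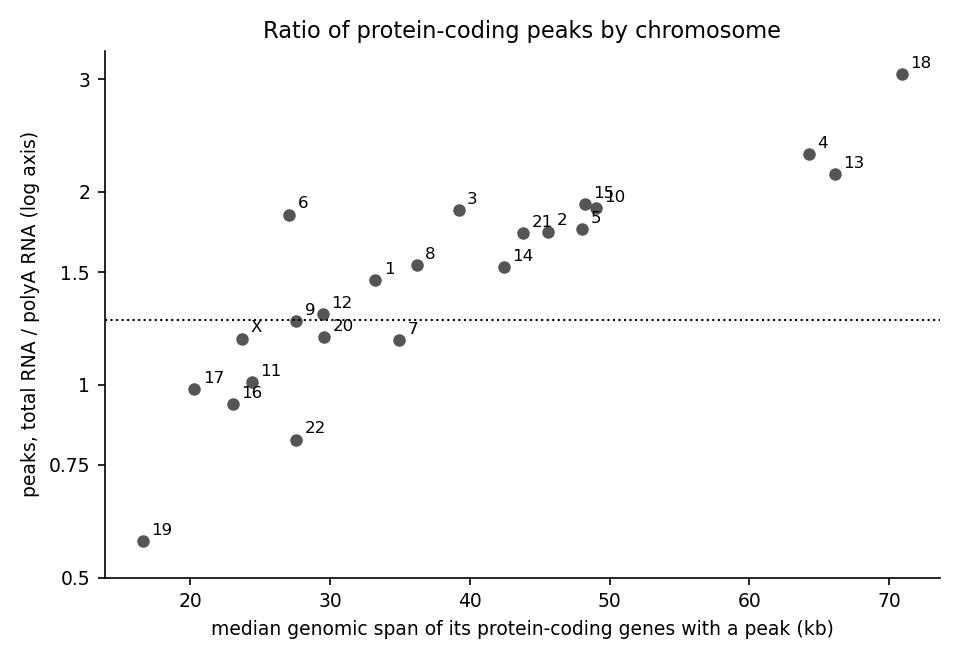
Ratio of total RNA to polyA RNA peaks in protein-coding genes (vertical log axis) against the median genomic span of each chromosome's protein-coding genes with an m6A-ORL peak (horizontal axis, kb), 1 point for each of 23 chromosomes. The dotted line is the ratio over all of them, 1.26, with chromosome 19 lowest at 0.57 and chromosome 18 highest at 3.05.

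The antibody lists gave a second readout of the same positions. A peak of either MeRIP list overlapped 54.7% of total RNA peaks (53.8 to 55.6) and 47.8% of polyA peaks (46.7 to 48.9). In protein-coding genes these shares were 63.9% and 49.3%, and both MeRIP libraries are labelled polyA RNA. The difference was 6.91 percentage points over all peaks, 10.5 without small structured RNAs (58.3% and 47.8%), 14.6 in protein-coding genes and 10.4 at equal list length. It was found in the middle of the span (67.1% and 46.6%) and in the last 10% of the span (70.1% and 56.0%), and it was the other way in the first 10% of the span (40.1% and 47.0%). Peaks of several blocks in protein-coding genes were overlapped in 29.9% and 31.7% of cases, and single-block peaks in 67.5% and 56.2%.

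The genes of the 3 groups also differed in antibody peaks. Of protein-coding genes in both m6A-ORL lists, 85.2% (83.6 to 86.7) had a peak in both MeRIP lists, against 70.5% of those in total RNA only and 61.3% of those in polyA RNA only. No MeRIP peak at all was listed for 10.7%, 24.1% and 31.1%. Within genes in both m6A-ORL lists, peaks that the other m6A-ORL list did not overlap were overlapped by an antibody peak in 65.1% of cases in total RNA and 46.1% in polyA RNA.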

How the data were processed

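Peak lists of 4 captured libraries were used, 2 by m6A-ORL and 2 by MeRIP. The deposited lists are in BED12 format, per the file headers, and give position, strand, blocks, an Ensembl ID and a score for each peak. The authors' score is read as a p-value or q-value, and which of these it is was not stated. The block count of each peak is used as deposited. The submitters' processing notes name Trim Galore, STAR, HOMER and the build hg38 but not what each did. Nothing used here states the peak caller, the input it was given or its threshold. Read depth is unknown.

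Exact duplicate lines were removed (2 in total RNA, 1 in polyA RNA). Ensembl IDs were named by position on RefSeq GRCh38.p14 when at least 90% of an ID's peak bases lay in 1 gene span on a strand that did not conflict, a symbol claimed by 2 IDs going to the one with a 3-fold excess of bases. This named 7385 of 9081 m6A-ORL IDs (81.3%), and of 300 peaks made up in named genes of chromosome 2, 286 were named, 285 of them correctly. Before this rule, genes of at most 400 nt were named when an ID's peaks filled at least 90% of them (532 IDs over the 4 lists). Overlapping genes can be misnamed. Peaks were shared when any block of one met a block of the other on the same strand (1 nt or more), and the overlap code was tested on simulated data against bedtools. Positions use the midpoint of a peak on the gene's genomic span.

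The members, the 33 gene lists and the alternatives were chosen with earlier results of these data known. Genes were named by a rule: the 10 with the most peaks in both lists, in total RNA only and in polyA RNA only, the 10 with the largest difference each way, and up to 4 members per gene list by difference and 2 by sum. Some genes that the rule names are not reported here. Other genes named (the remaining glycolytic genes and cell markers, noncoding RNAs, histone members, peaks of most blocks) and the comparisons by start base, consensus letters, gene span, promoter GC and ZNF genes of chromosome 19 were chosen after values were seen. The printed starts are the 6 best-scored per group outside chromosome 8, for which the promoter table used here has no entry. Intervals of differences between shares are Newcombe's and treat the lists as independent. Computations used Python 3.11.15, pandas 2.3.3 and scipy 1.17.1.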

Additional observations from a re-analysis of the deposited data

How the results depend on the processing

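No paired analysis was possible because each side is 1 library, and leaving out a library leaves nothing to compare. The main limits are the single library a side, unknown depth, naming by position, unknown treatment of reads with several places and no exon positions.

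Differences below are total RNA minus polyA RNA in percentage points. Of 49 differences recomputed, 48 kept their sign, and a value counts as moved when it left the main 95% interval. The share in the first 10% of the span, -3.47 over all named genes, changed sign to 7.98 when the first 300 nt were used in its place. It was -1.77 in protein-coding genes of both lists, -6.15 for single-block peaks of all named genes and -2.01 in protein-coding genes. The last 10%, 3.84, became 7.65 (final 1000 nt, over all named genes, with 15.1% and 14.9% there in protein-coding genes). It became 8.27 (protein-coding genes of both lists), 0.898 (single-block peaks of all named genes) and 7.42 (protein-coding genes). Small structured RNA, 6.15, became 7.89 (any small RNA position overlapped), 7.34 (equal list length), 9.40 (share of genes) and 10.1 (score at or below 1e-05). Several blocks, -17.9, became -15.6 (genes of both lists), -23.2 (at least 100 nt) and -5.73 (peaks overlapped by the other list). Chromosome 19, -7.54, became -4.16 (share of genes) and -4.43 (genes of both lists). MeRIP overlap, 6.91, became 14.6 (protein-coding), 10.5 (without small structured RNAs) and 10.4 (equal length).

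With at least 2 peaks required, list differences became -41.2 (ribosomal proteins, -11.5 before), 69.4 (ZNF genes, 55.6 before), -66.7 (glycolysis, -25.0 before) and -53.3 (translation factors, -17.9 before), and no replication histone gene was left to give a value. ZNF genes gave 42.0 at equal length and 43.0 at the stricter score, and the nuclear respiratory chain 2.44 at equal length (20.5 before).

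Peaks shared were 11.3% of total RNA and 16.2% of polyA RNA with 50% of the shorter peak required, 16.4% of either list at equal length, and 18.1% of polyA RNA at the stricter score. The stricter score left 4618 peaks in 3672 genes of total RNA and 3517 in 2335 of polyA RNA, with 953 genes in both and 2719 in total RNA only. A length of at least 100 nt left 5025 polyA peaks. Requiring 2 peaks left 599 genes in both lists, 1635 in total RNA only and 1067 in polyA RNA only, and 2586 protein-coding genes were in total RNA only. The alternatives without small RNAs or ZNF genes, in protein-coding genes for position, among overlapped peaks and at equal length for MeRIP were chosen after seeing the data.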
